A study of Mus musculus with 10 samples.

Results

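Cell cycle and DNA replication genes were followed in bladder RNA of *WT*, OMD-/- and PRELP-/- mice. The set holds 43 genes named one by one, of the 55536 genes counted, and was divided into 19 genes that act in S phase and 24 that act in mitosis. Each gene symbol was matched to GENCODE vM21, which is on build GRCm38, and all 43 were found. OMD, or osteomodulin, and PRELP are secreted small leucine-rich proteoglycans of the extracellular matrix. All animals were C57BL/6, with 4 *WT* libraries, 3 OMD-/- libraries and 3 PRELP-/- libraries, the last spelled PRLEP-/- in the genotype field. The knockouts were constitutive, in every tissue, with the coding exons removed and a β-galactosidase reporter put under each gene's own promoter. The study's text gives other sample numbers for this experiment than the labels, and the groups follow the labels. The labels give no age, sex or treatment and do not say whether a library came from 1 animal, so p-values measure the spread between these libraries only. The labels call the material homogenised bladder tissue, while the methods of the study speak of bladder epithelium.

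A cell that divides first copies its DNA and then separates the copies. Before S phase, the loading factors Cdc6 and Cdt1 place rings of Mcm proteins on replication origins, and the Mcm rings later unwind the DNA with the help of Gins proteins. Rrm1, Rrm2, Tyms and Tk1 supply the nucleotides, and Pcna is the sliding clamp of the polymerases. Mitotic genes switch on later, from G2, and include the kinase Cdk1 with its cyclins, the Aurora kinases, spindle motors and kinetochore proteins. Adult urothelium is a slowly renewing epithelium in which few cells divide at any time.

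The 10 libraries held 20391437 to 46269079 counts, of which the highest was *WT* replicate 1 and the knockout libraries held 21590156 to 25905707. A level of 3 counts, taken as the floor, was 0.0648 to 0.147 CPM (counts scaled to library size), depending on the library, and this floor covers counting error only. *Prelp* had 46 to 74 counts in the PRELP-/- libraries and 4848 to 19429 elsewhere. *Omd* had 0 counts in each OMD-/- library and 5, 7 and 7 in PRELP-/-, but in *WT* it had 0, 1, 8 and 12 counts, with the 0 in the deepest library. *WT* replicates 1 and 2 thus cannot be told from OMD-/- by the targeted gene, and *WT* and OMD-/- stand throughout for the libraries so labelled. Within each group some libraries lay close together and apart from the others, as measured by the coefficient of variation beyond counting error over 11915 genes. This was 7.91% between *WT* replicates 1 and 2 and 7.01% between *WT* replicates 3 and 4, against 16.1% to 18.8% across these pairs. It was 3.67% between OMD-/- replicates 2 and 3, against 13.8% and 14.0% for replicate 1 with each of them. It was 3.83% between PRELP-/- replicates 2 and 3, against 35.9% and 36.9% for replicate 1. The close libraries still differed by more than counting noise, with a mean chi-square per gene of 3.43 in OMD-/- and 4.28 in PRELP-/-. Such a difference does not show that they came from separate animals. In the main fits they were kept as separate replicates. In a second fit, close libraries were summed so that 2 libraries stood in each group. It called 2 of the members in OMD-/- against *WT*, 0 in PRELP-/- against *WT* and 0 between the knockouts. Of all genes tested, it called 9.06%, 0.0709% and 0% in these comparisons. The same pairs differed in 4 Y chromosome genes, whose summed level was 163 and 188 CPM in *WT* replicates 2 and 1, at most 0.0439 CPM in *WT* replicates 3 and 4, and 0.733 to 117 CPM in the knockout libraries. Markers of umbrella cells were high in every library, with a summed level of 7759 to 19406 CPM, and smooth muscle markers summed to 195 to 1229 CPM, highest in *WT* replicates 3 and 4.

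Promoters of the S phase and mitotic genes differ in the short sequences they hold. RefSeq windows on build GRCm38.p6, from 250 bases before to 50 bases after a gene's start, were found for 34 of the 43 genes, in 37 windows. The letters searched on both strands were TTCCCGC or TTGGCGC, here called E2F-type, TTTGAA, here called CHR-type, and CCAAT. E2F factors are known to bind elements of the first kind in S phase genes, and cell cycle homology regions of the second kind, with CCAAT boxes bound by NF-Y, are known from mitotic genes. E2F-type letters stood in 9 of 17 S phase windows (52.9%) and in 3 of 20 mitotic windows (15%), beside 6.81% of all 32851 windows. CHR-type letters stood in 15 of 20 mitotic windows (75%) and in 1 of 17 S phase windows (5.88%), beside 17.9% of all windows. CCAAT stood in 18 mitotic windows (90%) and 11 S phase windows (64.7%), beside 37.4% of all windows. A match describes letters only, and the data hold no measurement of binding. The windows of *Mcm3*, *Mcm6*, *Mki67* and *Top2a* are shown because these genes rose in OMD-/- with the smallest adjusted p among genes of their class that hold their class's letters, a choice made after the values were seen. All 4 lie on the minus strand and are written 5′ to 3′ in the sense of the gene, at chr1:20820263-20820562, chr1:128359656-128359955, chr7:135716330-135716629 and chr11:99024140-99024439. Capitals mark the letters searched for, on either strand, and in *Mcm3* a pair of E2F-type matches on opposite strands overlap.
Mcm3: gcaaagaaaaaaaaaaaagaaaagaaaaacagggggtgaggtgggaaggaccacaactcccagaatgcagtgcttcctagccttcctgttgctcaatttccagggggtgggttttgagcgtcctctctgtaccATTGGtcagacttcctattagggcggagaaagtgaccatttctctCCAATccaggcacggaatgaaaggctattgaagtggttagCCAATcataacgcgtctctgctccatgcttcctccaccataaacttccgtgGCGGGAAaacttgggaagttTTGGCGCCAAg
Mcm6: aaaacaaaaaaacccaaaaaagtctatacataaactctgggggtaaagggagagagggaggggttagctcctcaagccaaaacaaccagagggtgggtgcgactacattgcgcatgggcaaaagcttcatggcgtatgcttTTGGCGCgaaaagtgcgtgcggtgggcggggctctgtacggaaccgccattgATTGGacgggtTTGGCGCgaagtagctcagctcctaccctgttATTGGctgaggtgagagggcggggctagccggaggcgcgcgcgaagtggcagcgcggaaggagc
Mki67: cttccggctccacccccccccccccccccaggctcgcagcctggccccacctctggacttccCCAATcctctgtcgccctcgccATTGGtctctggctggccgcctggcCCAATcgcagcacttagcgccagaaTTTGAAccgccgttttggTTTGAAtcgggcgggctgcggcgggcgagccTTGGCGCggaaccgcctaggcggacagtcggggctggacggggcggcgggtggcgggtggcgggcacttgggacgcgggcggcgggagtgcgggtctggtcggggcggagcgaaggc
Top2a: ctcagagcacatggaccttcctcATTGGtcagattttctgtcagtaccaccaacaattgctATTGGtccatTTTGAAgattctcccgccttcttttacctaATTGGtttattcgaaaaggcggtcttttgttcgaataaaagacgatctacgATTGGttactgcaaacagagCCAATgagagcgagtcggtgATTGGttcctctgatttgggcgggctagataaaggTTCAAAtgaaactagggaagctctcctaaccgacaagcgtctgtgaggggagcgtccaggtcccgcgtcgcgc
The S phase windows carry E2F-type letters and CCAAT, while both mitotic windows carry CHR-type letters and CCAAT, and that of *Mki67* an E2F-type match as well.

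In *WT* bladder the S phase genes were the more abundant class per length. In reads per kilobase of exon scaled to depth (RPKM), the median over the 19 S phase genes was 1.51 and that over the 24 mitotic genes 0.278, taking each gene's mean of 4 libraries. *Pcna* had the highest level, 17.1 RPKM with a range of 15.4 to 18.0 over the 4 *WT* libraries. *Mcm4* (6.85 RPKM) and *Mcm7* (6.64 RPKM) came next and overlapped in range, followed by *Rrm1* (3.98 RPKM) and *Mcm6* (3.84 RPKM), which also overlapped. The first mitotic gene in this order was *Aurka*, at 1.24 RPKM and rank 14, and *Mki67*, which encodes the proliferation antigen Ki-67, stood at 0.341 RPKM and rank 27. Lowest were *Bub1* (0.0377 RPKM) and *Ccnb1* (0.0288 RPKM). *Ccnb1*, cyclin B1, had 9, 2, 1 and 4 raw counts in *WT*, 12, 10 and 9 in OMD-/- and 23, 4 and 7 in PRELP-/-. *Bub1*, a spindle checkpoint kinase, had 0, 5, 3 and 7 raw counts in *WT*, 1, 16 and 20 in OMD-/- and 6, 8 and 13 in PRELP-/-. Both were under the filter on low counts in the comparisons with *WT* and are left out of every count of tested genes there.

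**Figure D1:**
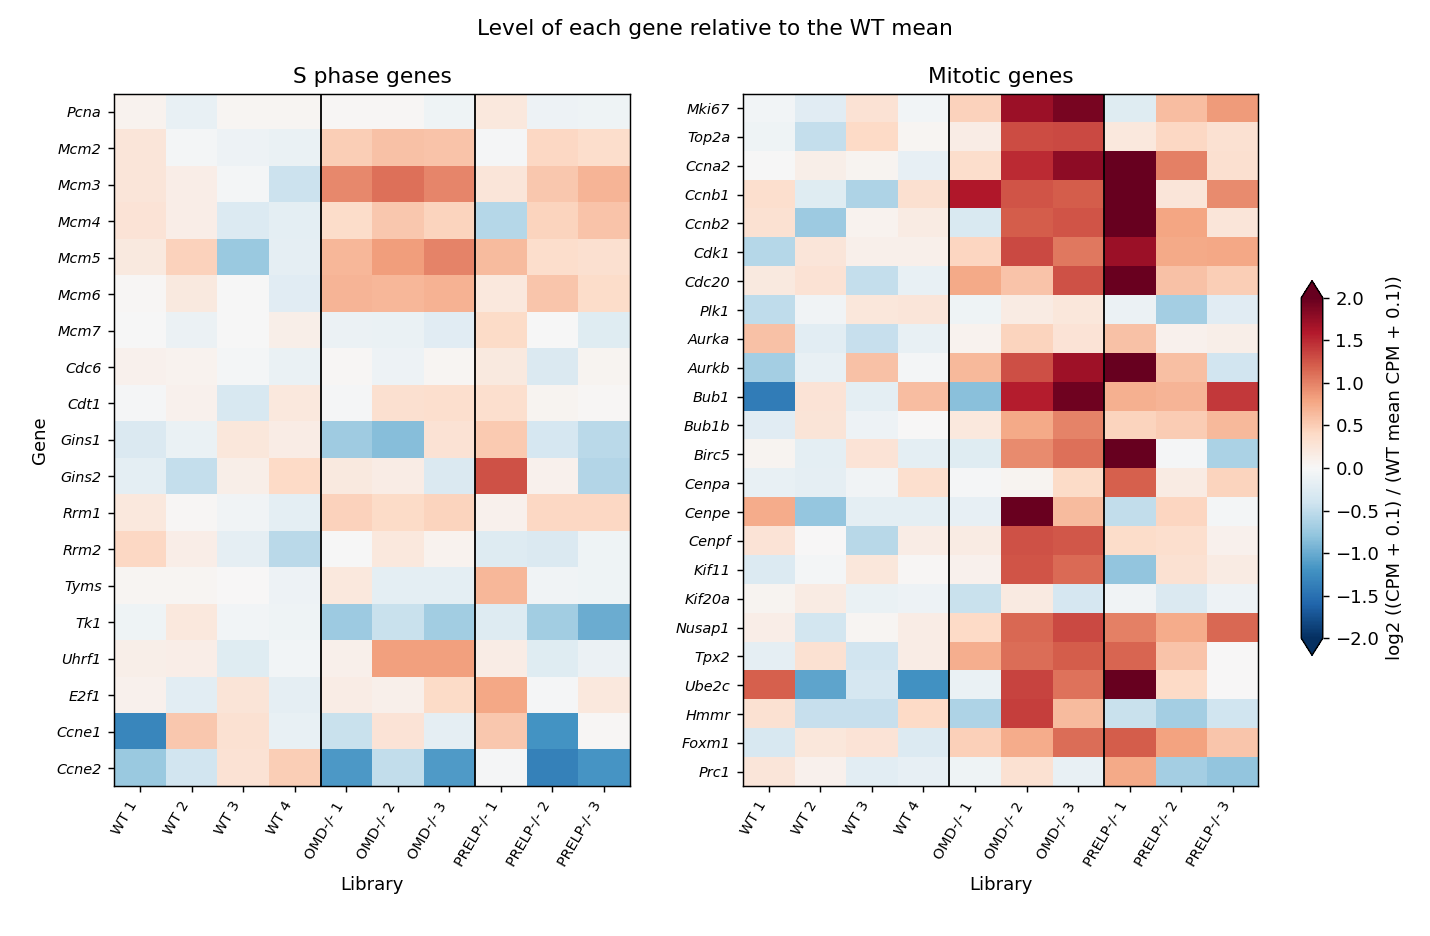
Level of each of the 43 genes (vertical axis) in each of the 10 libraries (horizontal axis), with S phase genes on the left and mitotic genes on the right. Colour gives the log2 ratio of the CPM value, after adding 0.1 CPM, to the mean of the 4 *WT* libraries. The darkest red of the mitotic genes lies in OMD-/- replicates 2 and 3 and, for a different selection of genes, in PRELP-/- replicate 1.

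The summed level of each class differed between the genotypes in its pattern over libraries. The 19 S phase genes summed to 265, 248, 234 and 230 CPM in *WT* (mean 244 ± 15.6, SD, n = 4), to 297, 303 and 298 CPM in OMD-/- (299 ± 3.28, SD, n = 3) and to 281, 278 and 276 CPM in PRELP-/- (279 ± 2.61, SD, n = 3). Every knockout library lay above every *WT* library in this sum, in which the most abundant genes weigh most. Of the 19 genes, 11 had a log2 fold change above 0 in OMD-/- against *WT* and 11 in PRELP-/- against *WT*. The 24 mitotic genes summed to 39.0, 36.0, 38.6 and 38.0 CPM in *WT* (37.9 ± 1.34, SD, n = 4), to 43.5, 78.3 and 80.4 CPM in OMD-/- (67.4 ± 20.7, SD, n = 3) and to 72.1, 48.6 and 48.1 CPM in PRELP-/- (56.3 ± 13.7, SD, n = 3). The *WT* libraries thus differed little in the mitotic sum, including between their own close pairs. Single mitotic genes varied more, such as *Ube2c* with 1.83, 0.305, 0.570 and 0.263 CPM in *WT*. In the mitotic sum, the library apart was the low one in OMD-/- and the high one in PRELP-/-. In bulk RNA, more dividing cells and more of these transcripts per cell cannot be told apart.

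**Figure D2:**
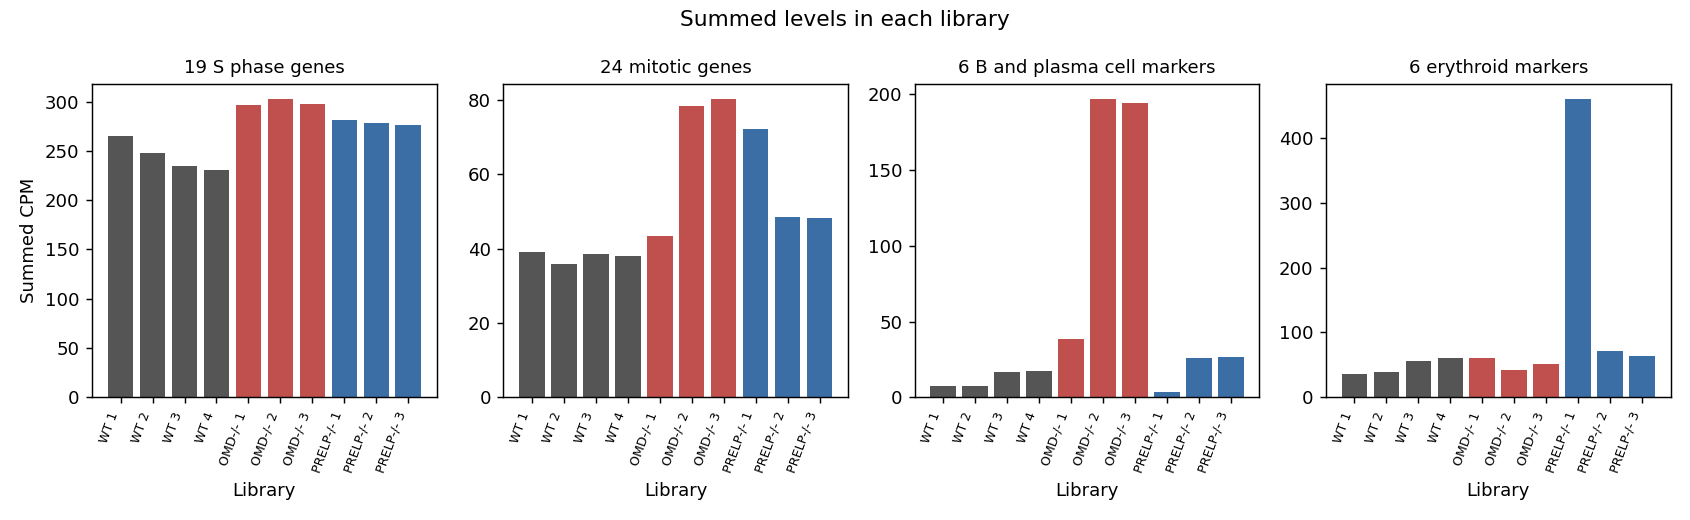
Summed level in CPM (vertical axis, from 0), drawn as a bar for each library (horizontal axis). The panels show, from left to right, the S phase genes, the mitotic genes, B and plasma cell markers and erythroid markers. All 6 knockout libraries exceed the *WT* range of 230 to 265 CPM for S phase genes, and for mitotic genes OMD-/- replicate 1, at 43.5 CPM, is the knockout library nearest to *WT*.

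The first comparison was of mice without OMD. Of the 43 genes, 41 could be tested against *WT*, and 16 rose and 1 fell in OMD-/- at an adjusted p under 0.05 by the quasi-likelihood test of edgeR, Benjamini-Hochberg adjusted over 16647 genes. This comparison called 29.4% of all genes tested, 14.3% higher and 15.1% lower, and the 17 members called are to be read against these shares. The median log2 fold change was 0.07 over the S phase genes and 0.95 over the 22 mitotic genes tested, beside -0.00020 over all genes tested.

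Among the S phase genes, 6 rose, 1 fell and 12 did not pass, and 5 of those that rose encode subunits of the Mcm helicase. *Mcm3* (ENSMUSG00000041859, chromosome 1, 20802968 to 20820312, minus strand) had 12.3, 11.4, 10.1 and 7.63 CPM in *WT* and 20.2, 22.4 and 20.4 CPM in OMD-/-. All OMD-/- libraries were above all *WT* libraries, and the log2 fold change was 1.0 (SE 0.15, adjusted p = 0.000920). *Mcm6* (ENSMUSG00000026355, chromosome 1, 128331590 to 128359664, minus strand) had 18.1, 20.4, 17.8 and 15.2 CPM in *WT* and 28.8, 28.3 and 29.0 CPM in OMD-/-. The groups again did not overlap, with a log2 fold change of 0.66 (standard error 0.11, adjusted p = 0.00125). *Mcm2* had 21.2, 17.5, 16.7 and 16.4 CPM in *WT* and 25.4, 27.1 and 26.7 CPM in OMD-/-. The OMD-/- libraries were the higher in each case, by a log2 fold change of 0.53 (standard error 0.11, adjusted p = 0.00496). *Mcm5* had 6.92, 8.37, 3.55 and 5.31 CPM in *WT* and 9.64, 10.9 and 12.1 CPM in OMD-/-, and *Mcm4* had 29.7, 26.9, 20.4 and 21.4 CPM in *WT* and 31.6, 35.9 and 33.5 CPM in OMD-/-. Both rose without overlap, *Mcm5* by a log2 fold change of 0.83 (standard error 0.24, adjusted p = 0.0255) and *Mcm4* by 0.43 (SE 0.13, adjusted p = 0.0294).

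The last subunit of the ring, *Mcm7*, had 29.4, 27.1, 29.3 and 31.8 CPM in *WT* and 27.1, 26.9 and 25.1 CPM in OMD-/-. Its OMD-/- libraries lay just under the *WT* range, with a log2 fold change of -0.18 (standard error 0.092) and an adjusted p of 0.169, and it shares exon bases with *Cops6* and *Ap4m1* on the other strand. *Rrm1*, the large subunit of ribonucleotide reductase, had 50.9, 44.5, 41.6 and 38.3 CPM in *WT* and 60.1, 57.5 and 59.8 CPM in OMD-/-. It rose by a log2 fold change of 0.41 (standard error 0.097, adjusted p = 0.00985), while the small subunit *Rrm2* did not pass (0.07, adjusted p = 0.859). *Tk1*, thymidine kinase of the salvage pathway, had 5.49, 6.80, 5.61 and 5.48 CPM in *WT* and 3.48, 4.27 and 3.57 CPM in OMD-/-. It fell by 0.65 on the log2 scale (SE 0.18, adjusted p = 0.0183), with every OMD-/- library under every *WT* library, and 83 of its exon bases are shared with *Afmid* on the other strand.

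The remaining S phase genes did not pass. *Pcna* had 43.3, 37.0, 42.2 and 42.1 CPM in *WT* and 41.8, 42.0 and 38.6 CPM in OMD-/-, and the log2 fold change was -0.03 (SE 0.088, adjusted p = 0.806). The libraries overlapped throughout. The loading factors *Cdc6* (-0.03, adjusted p = 0.895) and *Cdt1* (0.21, adjusted p = 0.403) and the thymidylate synthase gene *Tyms* (-0.07, adjusted p = 0.694) also overlapped *WT*. Largest among the genes that did not pass were *Uhrf1*, which helps to copy DNA methylation (0.62, adjusted p = 0.0841), and *Ccne2*, cyclin E2 (-0.95, adjusted p = 0.0883). *Ccne2* had 1.17, 1.53, 2.5 and 2.89 CPM in *WT* and 0.859, 1.41 and 0.871 CPM in OMD-/-, with replicate 2 inside the *WT* range. *Ccne2* shares 609 exon bases with *Ints8* on the other strand, which was the more abundant at 25.1 CPM, and *Gins2* shares 2758 with *Gse1*, at 69.6 CPM.

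Of the 22 mitotic genes tested, 10 rose, none fell and 21 had a log2 fold change above 0, the exception being the kinesin *Kif20a* (-0.20, adjusted p = 0.577). *Kif20a* had 2.60, 2.83, 2.28 and 2.32 CPM in *WT* and 1.81, 2.86 and 1.97 CPM in OMD-/-, and shares 1271 exon bases with *Cdc23* on the other strand. *Mki67* (ENSMUSG00000031004, chromosome 7, 135689784 to 135716361, minus strand) had 3.30, 2.92, 4.21 and 3.29 CPM in *WT* and 4.77, 11.5 and 13.1 CPM in OMD-/-. All OMD-/- libraries were above *WT*, replicate 1 narrowly, and the log2 fold change was 1.5 (SE 0.31, adjusted p = 0.00547). *Top2a* (ENSMUSG00000020914, chromosome 11, 98992943 to 99024189, minus strand), the topoisomerase that untangles chromosomes, had 4.51, 3.40, 6.35 and 4.91 CPM in *WT* and 5.35, 12.0 and 12.1 CPM in OMD-/-. Its replicate 1 lay inside the *WT* range, and the log2 fold change was 1.02 (SE 0.30, adjusted p = 0.0274). *Tpx2*, which targets Aurora A to the spindle, had 1.37, 1.96, 1.18 and 1.75 CPM in *WT* and 2.67, 3.5 and 3.76 CPM in OMD-/-. It rose without overlap, by a log2 fold change of 1.07 (standard error 0.26, adjusted p = 0.0109).

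*Ccna2*, *Cdk1* and *Foxm1*, which drive entry into mitosis, rose at low levels. *Ccna2*, cyclin A2, had 0.795, 0.872, 0.833 and 0.702 CPM in *WT* and 1.05, 2.43 and 3.02 CPM in OMD-/-. The log2 fold change was 1.42 (SE 0.37, adjusted p = 0.0143), with 510 exon bases shared with the more abundant *Exosc9* (23.5 CPM) on the other strand. *Cdk1*, its kinase partner, had 0.378, 0.741, 0.657 and 0.658 CPM in *WT* and 0.859, 1.66 and 1.37 CPM in OMD-/-. It passed narrowly, at a log2 fold change of 1.11 (standard error 0.38, adjusted p = 0.0490). *Foxm1*, a transcription factor of mitotic genes, had 1.85, 2.75, 2.85 and 1.93 CPM in *WT* and 3.29, 3.97 and 5.18 CPM in OMD-/-. It rose by a log2 fold change of 0.81 (standard error 0.25, adjusted p = 0.0322) without overlap.

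The other genes that rose work at the kinetochore and spindle. *Aurkb*, the Aurora kinase of the chromosomal passenger complex, had 0.358, 0.567, 1.01 and 0.614 CPM in *WT* and 1.05, 1.71 and 2.29 CPM in OMD-/-. The gap between the groups was narrow, and the log2 fold change was 1.42 (SE 0.42, adjusted p = 0.0271). *Nusap1*, a spindle protein, had 1.21, 0.83, 1.14 and 1.23 CPM in *WT* and 1.48, 2.56 and 2.89 CPM in OMD-/-. It rose without overlap by 1.04 on the log2 scale (SE 0.31, adjusted p = 0.0265), with 172 exon bases shared with *Oip5* on the other strand. *Cenpf*, a kinetochore protein, had 1.55, 1.26, 0.833 and 1.40 CPM in *WT* and 1.43, 3.20 and 3.12 CPM in OMD-/-, and *Bub1b*, of the spindle checkpoint, had 3.46, 4.88, 3.77 and 4.08 CPM in *WT* and 4.68, 6.91 and 8.11 CPM in OMD-/-. In both, OMD-/- replicate 1 lay inside the *WT* range, and the log2 fold changes were 1.0 (SE 0.34, adjusted p = 0.0454) and 0.69 (SE 0.22, adjusted p = 0.0370).

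*Cdc20*, the activator of the anaphase-promoting complex (0.94, adjusted p = 0.0546), and the spindle motor *Kif11* (0.98, adjusted p = 0.0538) narrowly did not pass. *Plk1* (0.10, adjusted p = 0.795), *Aurka* (0.24, adjusted p = 0.528), *Cenpa* (0.14, adjusted p = 0.709) and *Prc1* (0.01, adjusted p = 0.981) had the log2 fold changes nearest to 0 on the positive side. All adjusted p-values in these paragraphs are from edgeR's quasi-likelihood test.

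**Figure D3:**
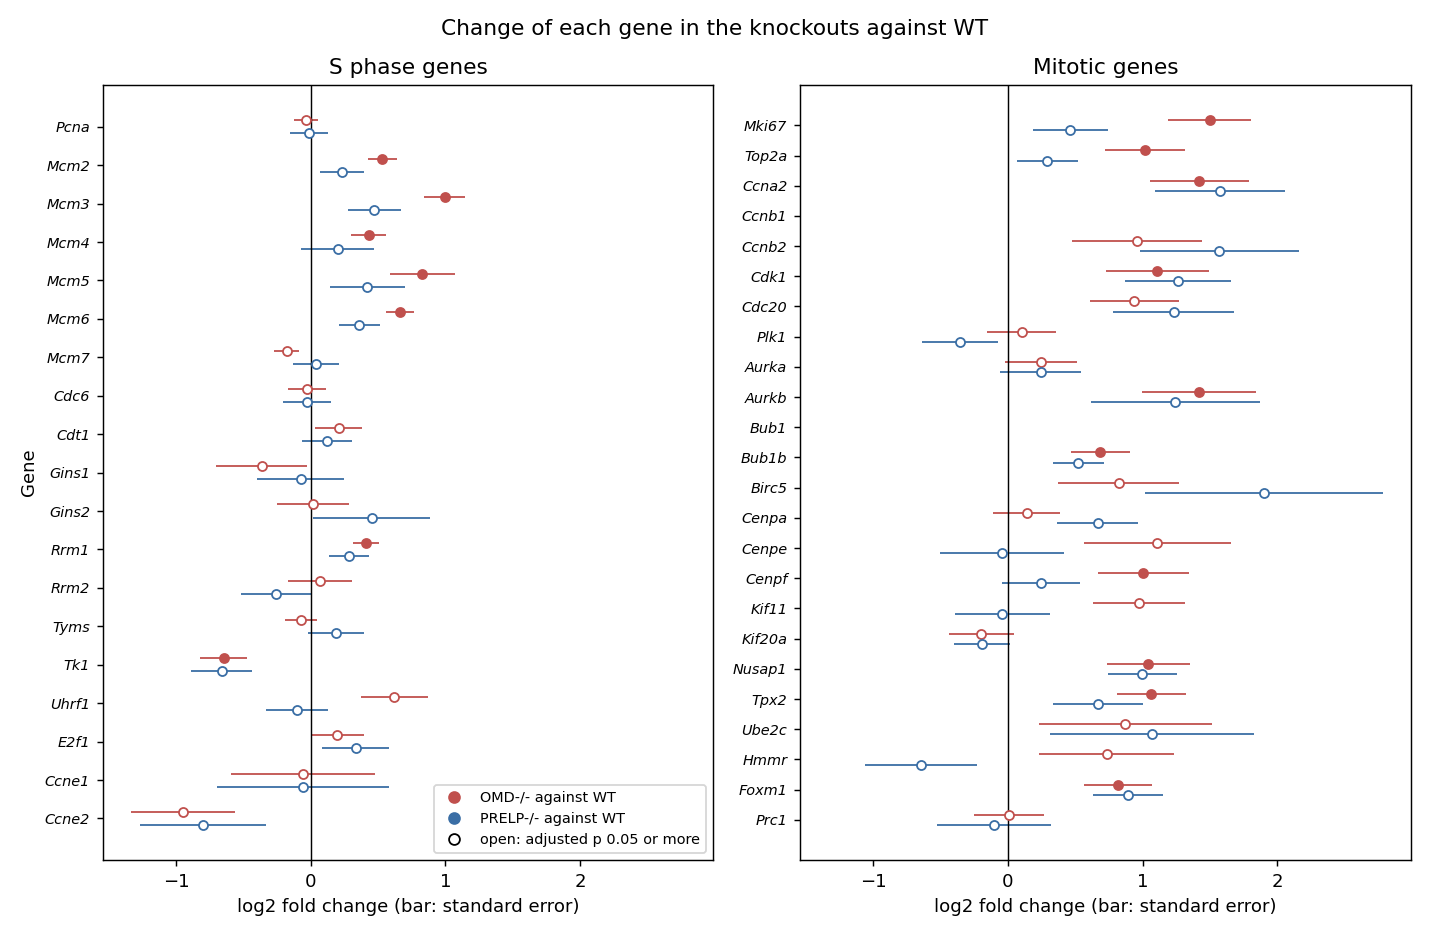
Log2 fold change (horizontal axis, with its standard error as a bar) of each gene (vertical axis) in OMD-/- against *WT* (red) and PRELP-/- against *WT* (blue), filled where the adjusted p of edgeR's quasi-likelihood test was under 0.05. Filled points occur in OMD-/- only, for 7 S phase genes (left) and 10 mitotic genes (right), and *Ccnb1* and *Bub1* have no point because they were not tested.

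The OMD-/- libraries differed among themselves. All OMD-/- libraries lay above all *WT* libraries for 6 S phase genes and 8 mitotic genes, and below for 2 S phase genes, beside 20.5% and 18.5% of all genes tested. In OMD-/- replicate 1, 8 of 22 mitotic genes (36.4%) exceeded every *WT* library, beside 34.5% of all genes. In replicates 2 and 3 it was 19 (86.4%) and 16 (72.7%), beside 32.1% of all genes in each. The rise of the mitotic genes was thus largest in the close pair of libraries. Without OMD-/- replicate 3, 1 mitotic gene passed (17.2% of all genes were called), without replicate 2 there were 2 (18.2%) and without replicate 1 there were 12 (25.5%), while *Mcm2*, *Mcm3*, *Mcm6*, *Rrm1* and *Mki67* passed in all 7 fits that left out 1 library. Against *WT* replicates 3 and 4 alone, in which *Omd* was detected, 8 S phase and 7 mitotic genes passed, beside 39.8% of all genes, and against *WT* replicates 1 and 2 alone 6 and 5, beside 26.3%. With close libraries summed, which called 9.06% of all genes, 2 members passed, *Mcm3* (log2 fold change 0.99, adjusted p = 0.0121) and *Mcm6* (0.69, adjusted p = 0.0211), and *Mki67* did not (1.31, adjusted p = 0.103).

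Markers of other cells moved with the same libraries. The summed level of 6 B cell and plasma cell markers was 38.5, 197 and 195 CPM in OMD-/- replicates 1 to 3, beside 7.63 to 17.2 CPM in *WT*. That of 6 T cell markers was 13, 36.0 and 34.8 CPM, beside 10.1 to 12.7 CPM, and that of 6 macrophage markers 252, 432 and 441 CPM, beside 166 to 187 CPM. These immune cell markers were highest in the 2 libraries with the highest mitotic sums. In PRELP-/- replicate 1, with the next highest mitotic sum (72.1 CPM), B cell and plasma cell markers summed to 3.53 CPM, the lowest of all libraries. Among them *Cd79b* was above the *WT* range. Its T cell markers summed to 17.9 CPM and its macrophage markers to 225 CPM, both above the *WT* range. Of these, *Cd3g*, *Cd2*, *Trac*, *Csf1r* and *Cd68* lay inside the *WT* range and *Mrc1* below it. Fibroblast markers summed to 17682 to 21348 CPM in all 3 OMD-/- libraries and 8042 to 9276 CPM in *WT*. The part of these cells in the mitotic and S phase levels was not tested.

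The second comparison was of mice without PRELP. Of the 41 members tested, 0 passed in PRELP-/- against *WT* by edgeR's quasi-likelihood test, where 7.29% of 16581 genes were called, 1.40% higher and 5.89% lower. At an unadjusted p under 0.05 there were 3 of 19 S phase genes and 7 of 22 mitotic genes, DESeq2 called 0 and 3 (8.17% of all genes), and limma-voom with sample weights called 8 and 8 (42.1% of all genes). The median log2 fold change was 0.12 over S phase genes and 0.60 over mitotic genes, beside 0.023 over all genes tested. Under the alternatives run, the S phase median went from -0.12 to 0.198 and the mitotic median from 0.28, without PRELP-/- replicate 1, to 0.83. Of the 22 mitotic genes, 14 (63.6%), 13 (59.1%) and 8 (36.4%) exceeded every *WT* library in PRELP-/- replicates 1, 2 and 3. The shares of all genes were 38.3%, 32.4% and 31.8%. In counts simulated with the spread of these libraries, 200 genes were given a log2 change of 1, up or down. Of these, 17% were called, beside 67.5% in the like simulation of OMD-/- against *WT*. The 200 genes were drawn from all genes tested and the simulated libraries had no close pairs. These rates are thus not those of the members, of which the mitotic genes lie at low levels. Both comparisons share the *WT* libraries, so their values are given side by side and were not correlated.

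The genes nearest to the threshold were mitotic. *Nusap1* had 1.21, 0.83, 1.14 and 1.23 CPM in *WT* and 2.32, 1.90 and 2.56 CPM in PRELP-/-. The groups did not overlap, and the log2 fold change was 1.0 (adjusted p = 0.0517), beside 1.04 in OMD-/-. *Foxm1* had 5.58, 4.17 and 3.49 CPM in PRELP-/-, above its *WT* libraries, with a log2 fold change of 0.89 (adjusted p = 0.0759). *Ccna2* had 4.64, 1.70 and 1.02 CPM and *Cdk1* 2.21, 1.09 and 1.12 CPM in PRELP-/-. Both were above every *WT* library, by log2 fold changes of 1.57 (adjusted p = 0.0866) and 1.26 (adjusted p = 0.0888), with the highest value in replicate 1. *Tk1* had 4.86, 3.56 and 2.89 CPM, below every *WT* library as in OMD-/-, with a log2 fold change of -0.66 (adjusted p = 0.108).

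The Mcm genes had smaller differences than in OMD-/-. *Mcm3* had 12.3, 15.1 and 16.7 CPM in PRELP-/-, with a log2 fold change of 0.47 (adjusted p = 0.173), and *Mcm6* had 20.8, 26.2 and 23.2 CPM. Both lay above the *WT* range. All PRELP-/- libraries were above *WT* for 2 S phase and 6 mitotic genes and below for 1 S phase gene, beside 14.5% and 15.8% of all genes tested. *Mki67* had 2.87, 5.31 and 6.24 CPM, so that replicate 1 was under the lowest *WT* library and the others above the highest. *Pcna* had 47.6, 38.3 and 38.9 CPM and overlapped *WT*. The largest log2 fold change below 0 in each class was that of *Ccne2* for S phase (-0.80, adjusted p = 0.303), with 1.99, 0.729 and 0.838 CPM in PRELP-/-, and that of the hyaluronan receptor gene *Hmmr* for mitosis (-0.64, adjusted p = 0.347). *Hmmr* had 0.815, 0.436, 0.438 and 0.877 CPM in *WT* and 0.442, 0.364 and 0.465 CPM in PRELP-/-, so that the groups overlapped.

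PRELP-/- replicate 1 differed from replicates 2 and 3 by gene length. Over all genes above 1 CPM, the median log2 ratio of replicate 1 to the mean of replicates 2 and 3 was 0.67 for genes with under 2 kb of exon, 0.22 for 2 to 4 kb, -0.22 for 4 to 8 kb and -0.76 for over 8 kb. The mitotic genes had medians of 1.68 (n = 2), 1.85 (n = 5), 0.33 (n = 12) and -0.15 (n = 5) in the same classes, each above that of all genes. The S phase genes were also above all genes in each class, with medians of 0.95 (n = 1), 0.30 (n = 9), 0.41 (n = 8) and -0.32 (n = 1). *Birc5*, which encodes survivin, had 4.25 CPM in PRELP-/- replicate 1 and 0.405 and 0.233 CPM in replicates 2 and 3. In *WT* it had 0.437, 0.349, 0.526 and 0.351 CPM, so the group's log2 fold change of 1.90 (standard error 0.88, adjusted p = 0.208) came from 1 library. *Ccnb2* and *Aurkb* were likewise highest in replicate 1, at log2 ratios of 1.90 and 1.93, while *Mki67* (-0.98, 10061 exon bases) and *Kif11* (-1.03, 7461 exon bases) were lower there. *Mcm4* was lower as well (-1.08), although with 3589 exon bases it falls in a class whose median over all genes was above 0. In a fit with offsets corrected for length, a choice made after seeing the data, 1 S phase gene and 2 mitotic genes passed against *WT*, beside 13.4% of all genes. Without PRELP-/- replicate 1, 5 S phase genes and 2 mitotic genes passed, beside 22.2% of all genes. The summed erythroid markers were 460 CPM in replicate 1, beside 35.7 to 70.8 CPM in all other libraries. Fibroblast markers summed to 9585, 19562 and 19190 CPM in PRELP-/- and macrophage markers to 225, 269 and 269 CPM, all above *WT*. In replicate 1 the single markers differed in direction. *Col1a1* and *Col1a2* were above every *WT* library, while *Pdgfra*, *Dcn*, *Lum* and *Col3a1* were below. *Adgre1*, *C1qa* and *C1qb* were above and *Mrc1* below, with *Csf1r* and *Cd68* inside the *WT* range. Umbrella cell markers summed highest in replicate 1 (19406 CPM), although *Krt20* was lowest there. The part of these differences in the cell cycle values was not tested.

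**Figure D4:**
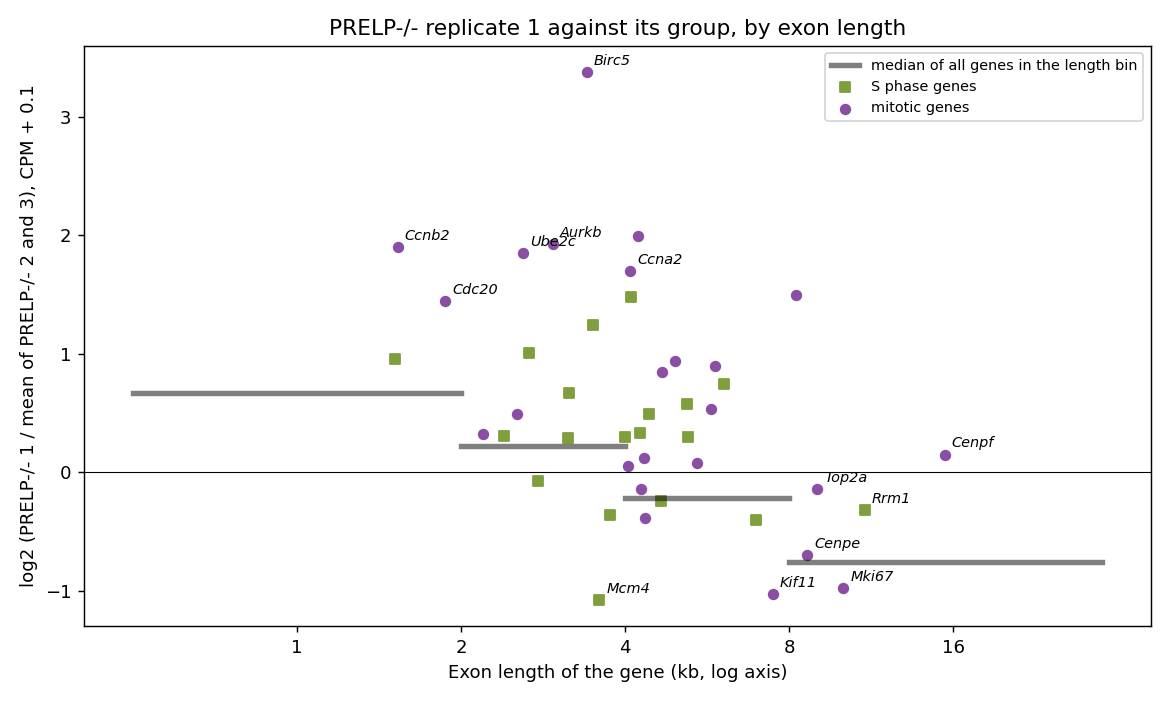
Log2 ratio of PRELP-/- replicate 1 to the mean of PRELP-/- replicates 2 and 3 (vertical axis) against exon length in kilobases (horizontal axis, logarithmic), for the S phase and mitotic genes as points and for the median of all genes above 1 CPM in 4 length classes. The median of all genes goes from 0.67 in the shortest class to -0.76 in the longest, and *Birc5* is the point farthest above it.

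Compared directly, 0 of 42 members differed between PRELP-/- and OMD-/- by edgeR's quasi-likelihood test, where 0.00633% of 15805 genes were called. At an unadjusted p under 0.05 there were 2 S phase genes and 0 mitotic genes, DESeq2 called 0 and 0, and limma-voom with sample weights called 3 and 6 (6.4% of all genes), all lower in PRELP-/-. The smallest adjusted p of a member was 0.690. *Mki67* was lower in PRELP-/- by a log2 fold change of -1.02 (standard error 0.44), *Mcm3* by -0.51 (SE 0.16) and *Birc5* higher by 1.08. The largest difference below 0 was, among mitotic genes, -1.36 in *Hmmr*, which had 0.382, 1.84 and 1.05 CPM in OMD-/-, and, among S phase genes, -0.71 in *Uhrf1*, which had 2.29, 3.84 and 3.85 CPM in OMD-/- and 2.37, 1.78 and 1.95 CPM in PRELP-/-. In each, 1 OMD-/- library lay within the PRELP-/- range. *Gins2* had the largest difference above 0 among S phase genes, 0.45, with 3.20, 3.07 and 2.25 CPM in OMD-/- and 6.85, 2.96 and 1.82 CPM in PRELP-/-. All PRELP-/- libraries lay below all OMD-/- libraries for *Mcm2*, *Mcm3*, *Mcm5*, *Mcm6*, *Rrm2* and *Plk1*, and for no member above, beside 8.75% and 6.10% of all genes tested. A difference between the knockouts in these genes was thus not called by edgeR's quasi-likelihood test. In counts simulated with the spread of these libraries, 4.5% of 200 genes given a log2 change of 1 were called. These genes were again drawn from all genes tested, so the rate is not that of the members. The 0 calls and the wide standard errors do not show that the knockouts were alike.

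Other cell cycle genes came from lists of textbook roles, chosen with earlier results of these data known. In OMD-/- they were called at shares below or close to the 29.4% of all genes. The calls were 2 of 27 replication genes, 3 of 30 mitotic genes, 3 of 11 G1 genes and 5 of 18 inhibitors. Of the 27 further replication genes tested in OMD-/-, the activator E2F gene *E2f2* rose (log2 fold change 1.15, adjusted p = 0.0309) and *Orc6*, of the origin recognition complex, fell (-0.55, adjusted p = 0.0373), with a median of 0.17. Of 30 further mitotic genes, *Racgap1* (1.20, adjusted p = 0.0220) and the condensin gene *Ncapd2* (0.70, adjusted p = 0.00866) rose and *Kif23* (-1.19, adjusted p = 0.00121) fell, with a median of 0.25. *Racgap1* and *Kif23*, whose products form the centralspindlin complex of cytokinesis, thus changed in opposite directions. Of 11 G1 genes, the D cyclins *Ccnd1* (0.44, adjusted p = 0.00161) and *Ccnd2* (0.35, adjusted p = 0.0119) rose and *Cdk2* fell (-0.97, adjusted p = 0.000264). Of 18 inhibitors of the cycle, *Trp53* rose (0.27, adjusted p = 0.0399), and *Cdkn1b*, which encodes p27 (-0.39, adjusted p = 0.00707), *E2f4* (-0.35, adjusted p = 0.0162), *E2f5* (-0.65, adjusted p = 0.0114) and the antiproliferative *Btg2* (-0.37, adjusted p = 0.00633) fell. These changes were called by edgeR's quasi-likelihood test. With close libraries summed, 0 replication genes, 1 mitotic gene, 1 G1 gene and 0 inhibitors passed, all lower in OMD-/-, beside 9.06% of all genes. Without OMD-/- replicate 2 or 3, 0 of the further replication genes passed, and 2 and 3 of the inhibitors did, all lower. Those fits called 18.2% and 17.2% of all genes. Without *WT* replicate 3, 1 replication gene passed (23.1% of all genes), and without *WT* replicate 1 there were 4 (29.5%).

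In PRELP-/-, the same lists gave 0 of 26 further replication genes (4 at an unadjusted p under 0.05) and 0 of 18 inhibitors (1 at an unadjusted p under 0.05) by edgeR's quasi-likelihood test. Among 30 further mitotic genes, *Racgap1* (1.29, adjusted p = 0.0136) and the kinase *Melk* (1.23, adjusted p = 0.0312) rose and *Kif23* fell (-1.37, adjusted p = 0.00439). *Cdk2* was the G1 gene that fell (-0.74, adjusted p = 0.0196). These calls stand beside 7.29% of all genes. With close libraries summed there were 0 in both lists, beside 0.0709% of all genes. With the replicate block there were also 0 in both, beside 0.683%. Without *WT* replicate 3 or PRELP-/- replicate 3, 0 of the further mitotic genes were called higher, where 3.2% and 3.11% of all genes were called. *Cdk2*, the G1 call, was lost without any 1 of *WT* replicates 1, 2 and 3 and PRELP-/- replicates 2 and 3. Those fits called 2.77% to 4.4% of all genes. Between the knockouts, 0 genes of these 4 lists passed, with 1 inhibitor at an unadjusted p under 0.05.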

How the data were processed

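Bladder RNA of 4 *WT*, 3 OMD-/- and 3 PRELP-/- mouse libraries went into stranded libraries made from poly(A) RNA, whose adaptors carried molecular identifiers. The authors deposited 1 integer read count per gene and library, without normalization. The file headers name HISAT2, while the submitters' processing notes name STAR 2.5.2b, featureCounts and DESeq2, and builds GRCm38 and hg38. Strand setting and use of the identifiers are not given in the sources used here, so 11 of the 43 genes, which share exon bases with a gene on the other strand, have uncertain levels. The authors' DESeq2 comparison tables (mean count, log2 fold change, standard error, statistic, p-values) were not used. The members and lists were chosen with earlier results of these data known.

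For each comparison its own libraries alone were fitted in R 4.3.3 with edgeR 4.0.16 (filterByExpr, TMM, robust quasi-likelihood test, two-sided, Benjamini-Hochberg adjustment over all genes tested, threshold 0.05), after checks on simulated data. Fold changes are first group over second. CPM used TMM library sizes over all 10 libraries and RPKM the union of exons. Depth was 20391437 to 46269079 counts per library. Alternatives used DESeq2 1.42.0, limma 3.58.1, other filters and scalings, libraries left out, summed or blocked. Members called in any comparison, *Mki67*, *Pcna* and each class's largest rise and fall were named with every library's value, and from the other lists up to 4 called genes in each direction. Same-numbered PRELP-/- and OMD-/- libraries deviated together (r = 0.38, 0.27 and 0.24), with nothing in the labels on why. A replicate block there also called 0 S phase and 0 mitotic genes, beside 0.272% of all genes.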

Additional observations from a re-analysis of the deposited data

Results flagged for a closer look

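Among 45 tests for a *WT* library far from the other 3 (43 genes and the 2 class sums), 2 found one, where chance gives about 1 in 20. *Tk1* was at 6.80 CPM in *WT* replicate 2 and 5.48 to 5.61 CPM in the others, a gap of 0.904 of the range, past Dixon's critical value for 4 libraries. *Cenpa* was at 2.72 CPM in *WT* replicate 4 and 1.88 to 2.02 CPM in the others, a gap of 0.833 of the range.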

How the results depend on the processing

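None of the 17 members called in OMD-/- changed sign under the alternatives run, but some uncalled members near 0 did, among them *Tyms* (-0.07 to 0.0093) and *Prc1* (0.011 to -0.013) in OMD-/- and *Pcna* (-0.010 to 0.022) in PRELP-/- with close libraries summed. In OMD-/- against *WT*, the 7 S phase genes became 2 with close libraries summed and 4 to 8 when 1 library was left out. The 10 mitotic genes became 5 with all 3 groups in one fit, 5 against *WT* replicates 1 and 2 alone, 0 with close libraries summed (6 at an unadjusted p under 0.05) and 1 to 12 when 1 library was left out. Of all genes, these fits called 14.7%, 26.3%, 9.06% and 17.2% to 29.5%, beside 29.4% in the main fit. A replicate block, in which *WT* replicate 4 drops out, gave 6 and 5 genes, beside 21.2% of all genes. Same-numbered libraries did not deviate together there (r of 0.0054, -0.045 and 0.0082). In PRELP-/- against *WT*, the 0 S phase genes became 8 by limma-voom with sample quality weights, 1 with length-corrected offsets and 0 to 5 when 1 library was left out. The 0 mitotic genes became 1 with RLE size factors, 1 without a filter on low counts, 3 by DESeq2, 8 by limma-voom, 3 with all groups in one fit, 2 with length-corrected offsets and 0 to 2 when 1 library was left out. Of all genes, these fits called 7.33%, 3.76%, 8.17%, 42.1%, 14.7%, 13.4% and 2.77% to 22.2%, in that order. The replicate block gave 0 and 0 there, beside 0.683% of all genes, with r of -0.12, 0.19 and -0.15. Between the knockouts, limma-voom gave 3 and 6 in place of 0 and 0, beside 6.4% of all genes, and alternatives over *WT* libraries do not apply. Calls by gene and alternative were followed for the 17 members called in OMD-/- and for *Pcna*, 324 values in each comparison with *WT*. In OMD-/- against *WT*, 85 lost their call, where *Pcna* had none to lose. In PRELP-/- against *WT*, 31 of the values for these same genes gained one. Over all genes, the 4899 calls in OMD-/- became 1658 (close libraries summed) to 7228 (limma-voom), the 1209 in PRELP-/- 13 to 6973 under the same settings, and the 1 between the knockouts 0 to 1012. The cause of these shifts was not tested. Most mitotic genes lie at a few CPM or less, where the relative counting error is largest.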
